A study of Rattus norvegicus with 4 samples.

Results

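Spatial RNA of an injected rat kidney that had gone through diet cycles was compared with that of an injected kidney without the diet. The comparison uses 2 of the 4 sections of the study, PAN_LS-FMD and PAN, with every spot of at least 500 UMIs and every gene of at least 200 UMIs over both sections. All rats were Sprague-Dawley. The PAN rat received puromycin aminonucleoside and was fed ad libitum. The PAN_LS-FMD rat received the same injection and 6 cycles of LS-FMD, a fasting mimicking diet low in salts. Both were examined 6 weeks after treatment and 5 months after the injection. The healthy section, from an uninjected control rat, and the healthy_LS-FMD section, from an uninjected rat after 1 diet cycle and 72 h of refeeding, are given beside them as levels. Each group has 1 section, 10 µm thick and cut from a frozen kidney, and the labels give neither a second animal nor the ages. Every interval below covers counting error only, no p-value was computed, and a difference between the sections cannot be told apart from a difference between any 2 rats.

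Puromycin aminonucleoside injures podocytes, the cells that cover the glomerular filter, and the protein that then leaks into the filtrate is followed by tubular injury. The filtrate passes through the proximal tubule, whose early segments (S1 and S2) lie in the cortex and whose last straight segment (S3) lies in the outer stripe of the outer medulla. It goes on through the thick ascending limb, which lies in the medulla and reaches into the cortex, then through the distal convoluted tubule and the collecting duct. The proximal tubule takes back sugars, amino acids, phosphate and filtered protein, secretes organic ions and makes glucose, and it lives largely on fatty acid oxidation. The S3 segment carries its own set of transporters, several of which depend on androgen in rodents. A UMI (unique molecular identifier) stands for 1 captured RNA molecule. A spot of the Visium slide collects RNA from a small patch of tissue, which may include cells of more than one type.

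The PAN section had 2724 spots and 24924170 UMIs and the PAN_LS-FMD section 2187 spots and 34965670 UMIs. The median spot held 8482 UMIs in PAN and 14959 in PAN_LS-FMD. Mitochondrially encoded genes took 3.02% and 3.40% of the UMIs and haemoglobin genes 0.0922% and 0.110%, in the same order. The 2 sections share 1912 spot barcodes, which are positions on the slide and not shared cells. When the spots of both were clustered together, none of the 14 resulting regions held spots of both sections, so no region could be compared that was defined across them. The count matrix of the healthy section was made with another version of Space Ranger than the other 3. Defining markers of the labelled kidney tissue were present in both sections, among them Slc34a1 of the proximal tubule (2122 CPM in PAN and 3744 in PAN_LS-FMD), Umod of the thick ascending limb (5210 and 7670) and Aqp2 of the collecting duct (264 and 397), where CPM is UMIs per 1000000 of the section. Y-linked genes had UMIs in all 4 sections: Kdm5d stood at 26.3 CPM in PAN, 15.04 in PAN_LS-FMD, 11.8 in healthy and 20.2 in healthy_LS-FMD.

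Of the 9879 genes, which hold 99.6% of the UMIs, 458 (4.64%) were at least 2-fold higher in PAN_LS-FMD with a counting interval that excluded 1, and 1737 (17.6%) were at least 2-fold lower. These 2 counts are called higher and lower below. The median gene had a log2 fold of -0.33, and 57.5% of the genes lay within 1.5-fold. When the sections were scaled by the median of the genes' ratios in place of the total, which moves every log2 fold up by that median, 830 genes were higher and 1185 lower. Among the 20 furthest higher genes were the solute carriers Slc7a12 and Slc7a13, the kallikreins Klk1c3 and Klk1c9 and the cytochromes P450 Cyp1a1, Cyp8b1 and Cyp2c11. Among the 20 furthest lower genes were Lrat of retinol storage, the troponins Tnni1 and Tnnt2, the B-cell genes Cr2 and Spib and the immediate early gene Egr2. In sections of this kind fewer cells of a type and less RNA per cell cannot be told apart.

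**Figure D1:**
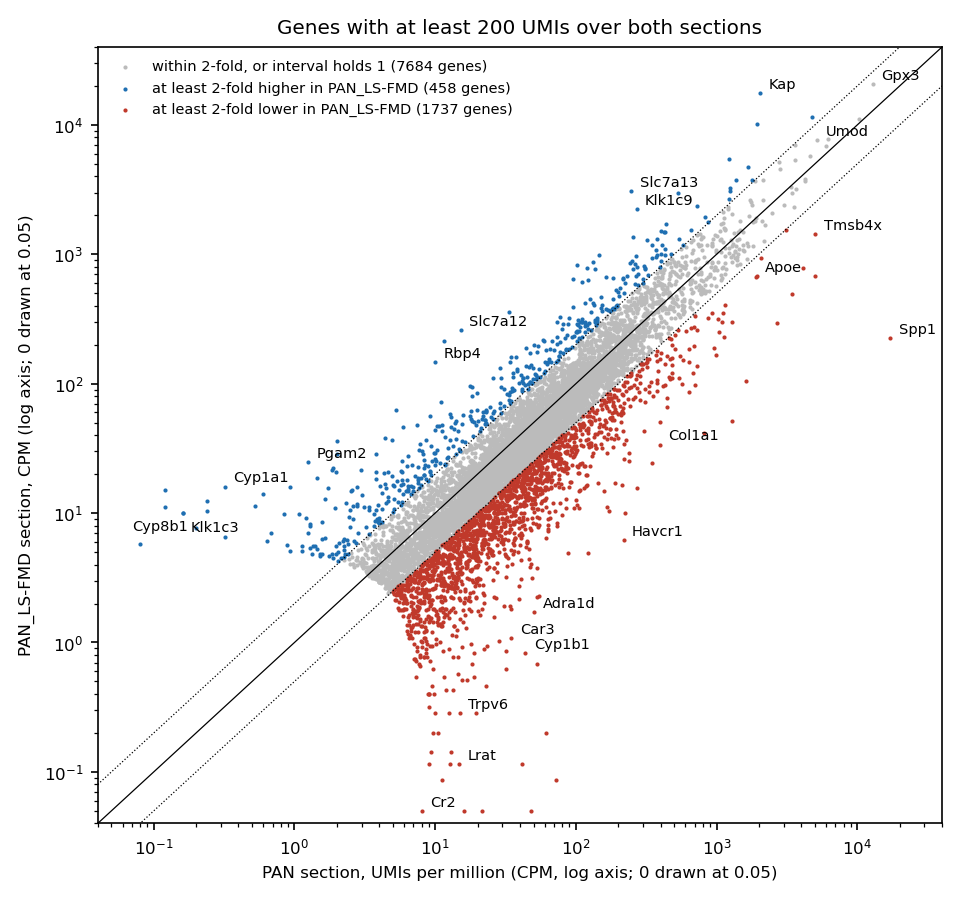
Level of each of the 9879 genes in the PAN section (x axis, CPM, log) against the PAN_LS-FMD section (y axis, CPM, log), 1 point per gene, with the solid line at equal levels and dotted lines at 2-fold. The 458 higher genes are blue and the 1737 lower genes red, with Kap and Slc7a13 far above the line and Spp1 far below it.

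The outer-stripe amino acid transporters and a hormone-regulated protein of the proximal tubule stood out among the higher genes because both their fold and their level were large. Slc7a13, which carries cystine and acidic amino acids across the S3 brush border, stood at 248 CPM in PAN, 3087 in PAN_LS-FMD, 2530 in healthy and 2259 in healthy_LS-FMD. The PAN section alone was low, and its level was 12.4-fold under that of PAN_LS-FMD (interval 12.1 to 12.8). Slc7a12, a related amino acid transporter, stood at 15.2, 260, 80.2 and 119 CPM in the same order, a fold of 17.1 (15.4 to 19.0), and here PAN_LS-FMD was the highest of the 4 sections. Kap, the kidney androgen-regulated protein, took 2049 CPM in PAN and 17617 in PAN_LS-FMD, against 17930 in healthy and 13317 in healthy_LS-FMD, a fold of 8.60 (8.52 to 8.68). Rbp4, the plasma carrier of retinol, stood at 9.95, 148, 225 and 97.8 CPM, a fold of 14.9. All 4 had their highest level in the same outer-stripe region of PAN, which is led by Slc7a12 and Slc7a13, and in the outer-stripe region of PAN_LS-FMD whose leading genes include Rbp4 and Ttll8, although leading a region was among the things that defined it. In PAN that region held 39.01% of the Kap UMIs in 161 of 2724 spots, at 9356 CPM, and in PAN_LS-FMD its counterpart of 238 spots held 22.1% at 27800 CPM.

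Kallikrein-family genes of the connecting tubule formed a separate group of higher genes with another place in the tissue. Klk1c9, a tissue kallikrein-like serine protease, stood at 271 CPM in PAN, 2231 in PAN_LS-FMD, 2029 in healthy and 2227 in healthy_LS-FMD, a fold of 8.25 (8.04 to 8.46). Its relative Klk1c3 stood at 0.160, 9.98, 18.1 and 13.4 CPM, a fold of 62.2 that rests on 4 UMIs in PAN. Reads of near-identical kallikreins may have been split between them, and Klk1c3 is the symbol of 2 identifiers, of which the more abundant was used. Pgam2, the muscle form of phosphoglycerate mutase of glycolysis, stood at 1.24, 24.8, 9.85 and 22.03 CPM, a fold of 19.9. In PAN_LS-FMD these 3 genes led 1 cortical region together with Calb1, the calbindin of the connecting tubule. That region, of 142 spots, held 46.8% of all Klk1c9 UMIs at 17240 CPM, and the region of PAN that Calb1 leads reached 2292 CPM.

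Enzymes were among the remaining genes of these 20. Cyp1a1, a cytochrome P450 induced through the aryl hydrocarbon receptor, stood at 0.321 CPM in PAN, 16.02 in PAN_LS-FMD, 1.06 in healthy and 1.58 in healthy_LS-FMD, so that PAN_LS-FMD was the single high section. Its fold over PAN was 49.9 (25.1 to 116), from 8 UMIs in PAN. Cyp8b1, the sterol 12-hydroxylase of bile acid synthesis, stood at 0.0802, 5.81, 4.22 and 1.86 CPM, and Cyp2c11, a male-typical P450 of the rat, at 1.85, 21.7, 88.4 and 36.3 CPM. Inmt, an N-methyltransferase of indolamines and thioethers, stood at 33.7, 355, 279 and 306 CPM, a fold of 10.5 (9.83 to 11.3), with PAN low and the other 3 sections close to each other. Sds, serine dehydratase, was 10.6-fold higher and Aldh1b1, a mitochondrial aldehyde dehydrogenase, 11.9-fold higher. Cftr, the chloride channel, stood at 2.01, 28.8, 5.92 and 9.36 CPM, a fold of 14.4 with PAN_LS-FMD above all 3 others. Among the same 20 genes, Ttll8, Cabp7, Dusp15, Nwd2, Bfsp2 and Mlc1 were between 13.03-fold and 62.02-fold higher, each at under 2 CPM in PAN.

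**Figure D2:**
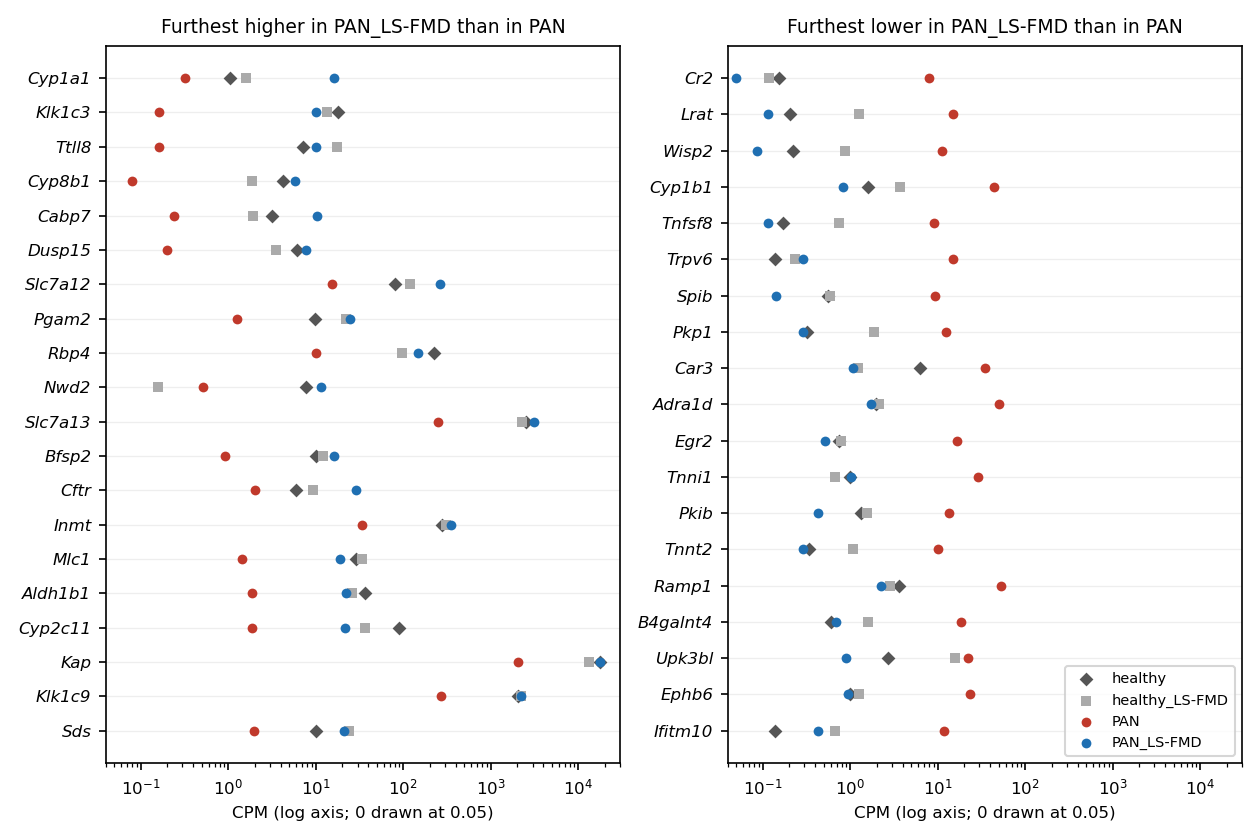
CPM (log axis) of the 20 genes furthest higher (left) and 19 of the 20 furthest lower (right) in PAN_LS-FMD than in PAN, in each of the 4 sections, 1 point per section. In the left panel PAN is the lowest point in all genes except Nwd2, where healthy_LS-FMD is lower at 0.158 CPM, and in the right panel PAN is the highest point throughout.

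The largest gains in level, as distinct from fold, fell on a few abundant tubule genes. Tff3, a secreted trefoil peptide of mucosal protection, stood at 1925 CPM in PAN, 10245 in PAN_LS-FMD, 11608 in healthy and 6828 in healthy_LS-FMD, a fold of 5.32 (5.27 to 5.37). Gpx3, the plasma glutathione peroxidase that the proximal tubule makes, had 12883 CPM in PAN and 20703 in PAN_LS-FMD, a fold of 1.61, against 23510 in healthy and 6744 in healthy_LS-FMD. The section with 1 diet cycle was thus lower in Gpx3 than PAN. Gclc, the catalytic subunit of the enzyme that sets the rate of glutathione synthesis, stood at 1216, 5421, 4619 and 4741 CPM, a fold of 4.46. Cyp4a2, a fatty acid hydroxylase, was 2.38-fold higher at 11417 CPM, and its reads may be shared with its close relatives. Hao2, a peroxisomal hydroxyacid oxidase, stood at 3582 CPM in PAN and 7021 in PAN_LS-FMD. Slc3a1, the heavy chain of the cystine transporter, was 2.81-fold higher and Akr7a3, an aflatoxin aldehyde reductase, 5.66-fold. Umod, the thick ascending limb's uromodulin, was 1.47-fold higher and so within 2-fold.

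The spread over spots shows that these gains were not limited to a few spots. Each spot of at least 3000 UMIs was thinned to 3000, which kept 2607 spots of PAN and 2180 of PAN_LS-FMD and left out 117 and 7. Kap had a median of 2 UMIs per thinned spot in PAN (0 to 68) and of 42 in PAN_LS-FMD (5 to 127), and 19 of the PAN spots reached the PAN_LS-FMD median. Cyp4a2 had a median of 11 in PAN (0 to 57) and of 33 in PAN_LS-FMD (7 to 65). Gpx3 overlapped far more, with medians of 22 (2 to 284) and 47 (6 to 350), and 23.8% of PAN spots reached the PAN_LS-FMD median. Before thinning the median spot had 7140 CPM of Gpx3 in PAN and 15380 in PAN_LS-FMD, and 768 and 14080 CPM of Kap. On the side of loss, Spp1, the secreted phosphoprotein osteopontin that injured tubules make, had a median of 47 in PAN (10 to 191) and of 0 in PAN_LS-FMD (0 to 15). No spot of PAN_LS-FMD reached the 10th percentile of PAN for Spp1, which was 26. Tmsb4x, the actin-binding thymosin beta 4, had medians of 15 and 4, with 15 of 2180 PAN_LS-FMD spots at or above the PAN median.

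**Figure D3:**
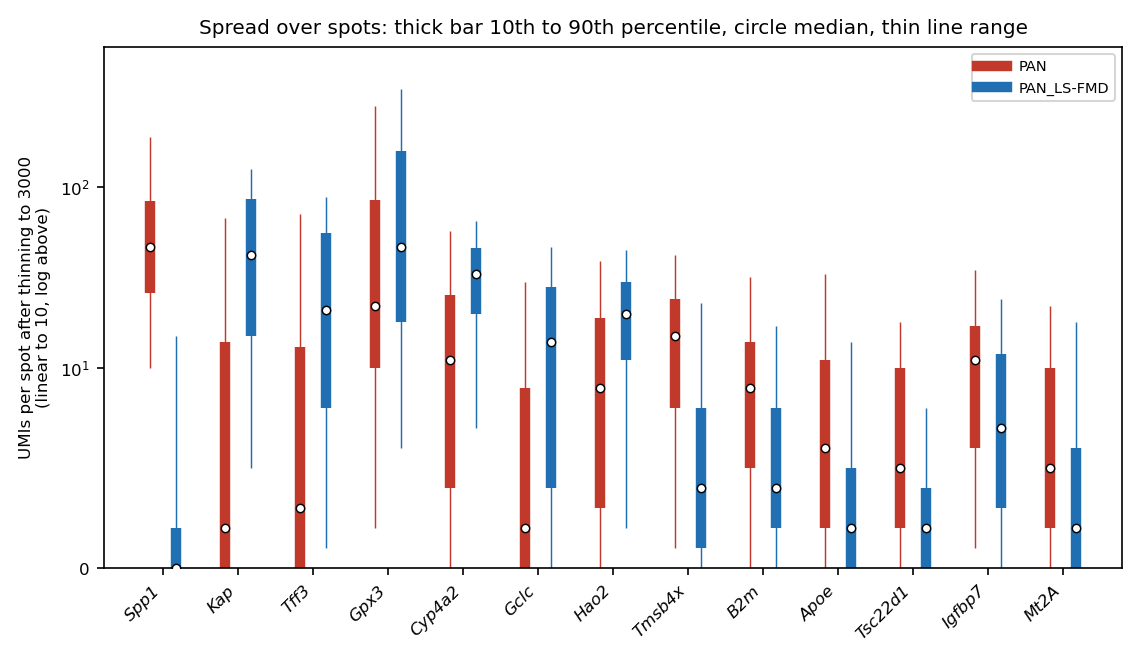
UMIs per spot after thinning to 3000 (linear to 10, log above) of Spp1 and the 6 genes with the largest gains and the 6 with the largest losses in CPM, for PAN (red, 2607 spots) and PAN_LS-FMD (blue, 2180 spots), with the thick bar from the 10th to the 90th percentile, the circle at the median and the thin line over the range. The ranges of Spp1 overlap only between 10 and 15 UMIs, while those of Gpx3 and Igfbp7 overlap over most of their length.

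Among gene groups, the genes of the S3 segment were the furthest higher of the lists with at least 10 measured members. Of 13 measured S3 genes 11 were higher, 1 lower and 1 neither, with a median log2 fold of 1.99 beside -0.33 for all genes. Their summed level was 2814 CPM in PAN, 22812 in PAN_LS-FMD, 22287 in healthy and 17633 in healthy_LS-FMD. Besides Kap and the 2 Slc7a genes, the organic anion transporters Slco1a1 (7.59-fold) and Slco1a6 (6.52-fold) were higher, with the reservation that reads of the Slco1a family may be split between its members. Slc22a13, a urate and nicotinate transporter, was 7.31-fold higher, and the brush-border protease meprin was 3.16-fold higher in its Mep1a and 3.52-fold in its Mep1b chain. The exception in this list was Cyp7b1, an oxysterol hydroxylase, which was 3.23-fold lower. It stood at 25.9 CPM in PAN, 8.04 in PAN_LS-FMD, 7.46 in healthy and 9.51 in healthy_LS-FMD. In both PAN and PAN_LS-FMD its level was lowest in the outer stripe. In PAN that was 17.2 CPM, beside 28.6 in the cortex and 30.1 in the medulla.

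Transport of organic ions and of amino acids was higher in part. Of 18 organic anion and cation transporters 8 were higher, 1 lower and 9 neither (median 0.81). The urate exchanger Slc22a12 was 2.52-fold higher, at 269.5 CPM in PAN and 680.1 in PAN_LS-FMD, and the cation transporter Slc22a2 was 3.53-fold higher, at 242 and 854. Of 20 amino acid and peptide transporters 7 were higher, 4 lower and 9 neither (median 0.64), and the 4 lower ones are 20% of the list beside 17.6% of all genes. The carriers Slc6a13, Slc38a3 and Slc15a2 were higher by 3.21-fold, 5.11-fold and 2.71-fold. The 4 lower members were Slc7a7, Slc7a5, Slc1a5 and Slc6a12, at 4.63-fold, 2.88-fold, 2.70-fold and 3.07-fold below PAN. Slc7a5 and Slc1a5 are carriers that proliferating cells are known to use, and Slc6a12 carries the osmolyte betaine.

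Glutathione synthesis and conjugation, glucose production, fructose use and fatty acid oxidation followed the same direction. Of 28 genes of glutathione and conjugation 11 were higher, 1 lower and 16 neither (median 0.68). Both subunits of glutamate-cysteine ligase were higher (Gclc 4.46-fold, Gclm 3.41-fold), as was glutathione synthetase Gss, at 263 CPM in PAN and 846 in PAN_LS-FMD. The lower member was Hmox1, the haem oxygenase of oxidative stress, at 22.7 and 10.7 CPM. Of 17 genes of gluconeogenesis and fructose use 7 were higher, 1 lower and 9 neither (median 0.85). Pck1, which commits carbon to glucose, stood at 347 CPM in PAN, 1178 in PAN_LS-FMD, 916 in healthy and 463 in healthy_LS-FMD, and Khk, the ketohexokinase of fructose use, was 2.57-fold higher. Slc2a2, the basolateral glucose carrier, was 2.93-fold lower. Of 26 genes of the peroxisome and fatty acid oxidation 8 were higher, none lower and 18 neither (median 0.89), with Ehhadh, the peroxisomal bifunctional enzyme, 4.58-fold and Acadm, the medium-chain dehydrogenase, 2.57-fold higher.

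The mitochondrial core of energy metabolism moved less. None of 21 genes of the tricarboxylic acid cycle was past 2-fold, with a median of 0.49 and folds from 0.618 (Pdk1, a kinase that inhibits pyruvate dehydrogenase) to 1.86 (Sdhd, a subunit of succinate dehydrogenase). None of 11 mitochondrially encoded genes was past 2-fold (median 0.19). Of 19 glycolysis genes 1 was higher, 3 lower and 15 neither (median -0.05), and both shares are near the 4.64% higher and 17.6% lower of all genes. Pgam2 was the higher one, and the lower ones were Hk2, the inducible hexokinase (4.76-fold), Slc16a3, the lactate exporter (4.11-fold), and Pfkfb3, an activator of glycolytic flux (2.58-fold). The uptake machinery for filtered protein was within 2-fold in all of its 13 measured genes (median 0.05). Its receptors megalin (Lrp2) and cubilin (Cubn) stood at 970.5 and 245 CPM in PAN and at 1401 and 229 in PAN_LS-FMD. Proteasome genes (median -0.10, 2 lower of 28), clock genes (median -0.17, 1 higher of 13) and heat shock and folding genes (median -0.32, 2 lower of 25) lay near or above the median of all genes.

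**Figure D4:**
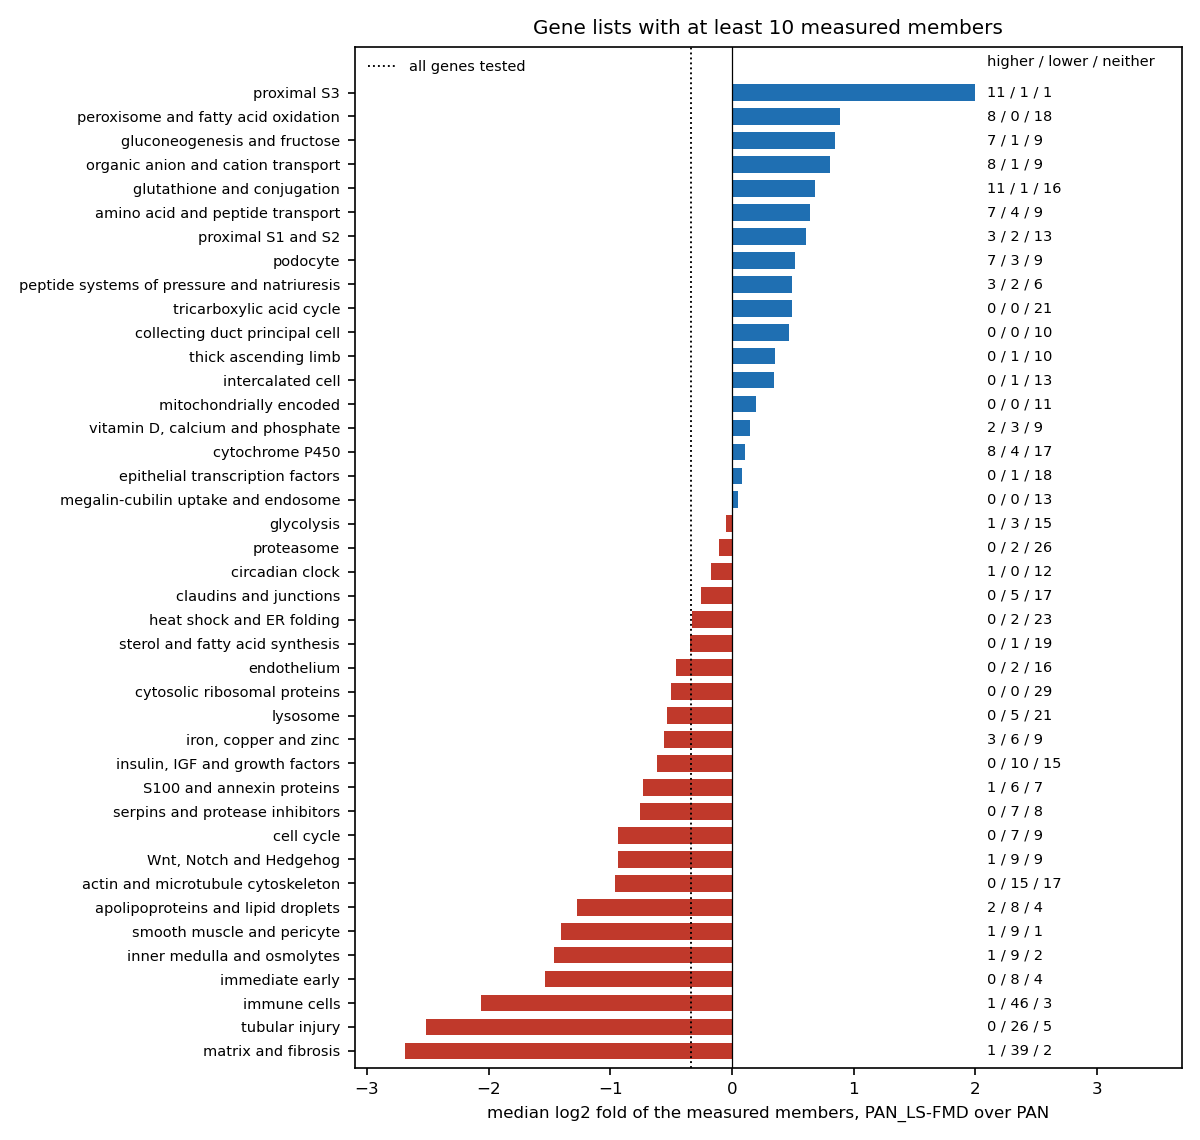
Median log2 fold of PAN_LS-FMD over PAN (x axis) for each gene list with at least 10 measured members (y axis), with the numbers of higher, lower and other members at the right and the dotted line at the median of all genes, -0.33. Proximal S3 genes reach 1.99, and matrix and fibrosis genes -2.68.

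The furthest lower genes were of several kinds. Cr2, the complement receptor of B cells and follicular dendritic cells, had 200 UMIs in PAN (8.02 CPM) and none in PAN_LS-FMD, which makes it at least 93.5-fold lower against a floor of 3 counts over the section, 0.0858 CPM. Tnfsf8, the CD30 ligand, and Spib, a B-cell transcription factor, were 79.3-fold and 65.7-fold lower, at 0.114 and 0.143 CPM in PAN_LS-FMD. Adra1d, the alpha-1D adrenoceptor, stood at 50.5 CPM in PAN, 1.72 in PAN_LS-FMD, 1.98 in healthy and 2.13 in healthy_LS-FMD, and Ramp1, the partner protein of the receptor for calcitonin gene-related peptide, at 52.5, 2.26, 3.57 and 2.84 CPM. In both, PAN was the single high section. Trpv6, an epithelial calcium channel, stood at 15.05, 0.286, 0.137 and 0.237 CPM and was 52.6-fold lower.

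Genes known from muscle were among the same 20. Troponins of slow skeletal and cardiac muscle were 27.7-fold (Tnni1) and 35.1-fold lower (Tnnt2), with Tnni1 at 28.5 CPM in PAN and 1.03 in PAN_LS-FMD. Skeletal muscle itself had 1 measured marker, Tnnt3, at 11.5 and 2.97 CPM, and the summed level of that marker list was 15.6 and 4.80 CPM. Car3, the carbonic anhydrase of muscle and fat, stood at 34.9 CPM in PAN, 1.09 in PAN_LS-FMD, 6.33 in healthy and 1.22 in healthy_LS-FMD, so that healthy was also above PAN_LS-FMD. Egr2, an immediate early factor, was 32.7-fold lower, and Upk3bl, a uroplakin-like gene, 25.1-fold lower while healthy_LS-FMD had 15.7 CPM of it. Wisp2, Pkp1, Pkib, B4galnt4, Ephb6 and Ifitm10 were between 24.7-fold and 131-fold lower. In PAN, Lrat and Car3 were highest in a cortical region of 377 spots that is led by Postn, Lum and Car3, genes of matrix and stroma.

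Retinoid genes moved in both directions. Lrat, which esterifies retinol for storage, stood at 14.9 CPM in PAN, 0.114 in PAN_LS-FMD, 0.205 in healthy and 1.26 in healthy_LS-FMD and was 130-fold lower, from 371 UMIs to 4. Rbp4, as given above, was 14.9-fold higher. Further retinoid genes were looked at after these values were seen. Aldh1a2 and Aldh1a3, which make retinoic acid, were 4.90-fold and 4.02-fold lower, at 50.3 and 60.7 CPM in PAN. Rdh10, which oxidises retinol, was 2.54-fold lower. Aldh1a1, another retinaldehyde dehydrogenase, was within 2-fold at 380 and 493 CPM, and the receptor gene Rarb, itself induced by retinoic acid, at 16.4 and 11.4 CPM.

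Cyp1b1 and Cyp1a1, both known to be induced through the aryl hydrocarbon receptor, went in opposite directions. Cyp1b1, which is typical of stromal cells, stood at 43.7 CPM in PAN, 0.829 in PAN_LS-FMD, 1.60 in healthy and 3.75 in healthy_LS-FMD and was 52.7-fold lower. Cyp1a1 was 49.9-fold higher, as given above. They also lay in different places: Cyp1b1 was highest in PAN in cortical regions led by Actg2 and by Postn (90.9 and 89.9 CPM), and Cyp1a1 was highest in PAN_LS-FMD in the outer-stripe region with Rbp4 and Ttll8 among its leading genes (31.6 CPM). Other genes of this pathway, again chosen after these values were seen, were within 2-fold or rested on few UMIs. The receptor Ahr itself was at 29.2 CPM in PAN and 15.3 in PAN_LS-FMD, 1.92-fold lower, and Nqo1, a quinone reductase, at 15.6 and 21.4 CPM. Aldh3a1 had 28 UMIs in PAN and 4 in PAN_LS-FMD, and Cyp1a2, another known target of the receptor, 0 and 1.

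Upstream sequences are shown for 2 of the furthest higher and 2 of the furthest lower of these genes, to set the outer-stripe genes Slc7a12 and Rbp4 beside Cyp1b1 and Lrat. Each is the 250 bases before the gene's start in RefSeq, build GRCr8, written 5′ to 3′ on the gene's strand. Of the 20 genes in each direction, 16 and 16 were matched by symbol. Capitals mark TATAAA, the TATA box, or its complement TTTATA in the first pair, which overlap in Slc7a12, and GCGTG, the core of the xenobiotic response element, or its complement CACGC in the second pair.
Slc7a12 (chr2:88868104-88868353, minus strand): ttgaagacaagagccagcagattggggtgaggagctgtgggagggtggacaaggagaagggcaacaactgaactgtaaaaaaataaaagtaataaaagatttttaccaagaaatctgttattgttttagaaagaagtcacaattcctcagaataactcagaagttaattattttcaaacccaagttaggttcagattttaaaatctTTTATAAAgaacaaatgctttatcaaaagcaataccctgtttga
Rbp4 (chr1:245313552-245313801, minus strand): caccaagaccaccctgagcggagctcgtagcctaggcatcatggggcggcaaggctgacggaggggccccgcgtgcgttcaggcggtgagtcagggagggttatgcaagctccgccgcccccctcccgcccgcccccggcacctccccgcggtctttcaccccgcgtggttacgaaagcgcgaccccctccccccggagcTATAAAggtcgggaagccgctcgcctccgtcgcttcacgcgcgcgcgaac
Cyp1b1 (chr6:21094315-21094564, plus strand): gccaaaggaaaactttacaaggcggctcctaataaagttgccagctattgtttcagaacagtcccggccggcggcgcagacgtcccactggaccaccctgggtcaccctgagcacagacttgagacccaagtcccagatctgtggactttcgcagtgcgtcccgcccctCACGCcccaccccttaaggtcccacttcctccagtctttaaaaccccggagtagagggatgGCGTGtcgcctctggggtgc
Lrat (chr2:170571213-170571462, minus strand): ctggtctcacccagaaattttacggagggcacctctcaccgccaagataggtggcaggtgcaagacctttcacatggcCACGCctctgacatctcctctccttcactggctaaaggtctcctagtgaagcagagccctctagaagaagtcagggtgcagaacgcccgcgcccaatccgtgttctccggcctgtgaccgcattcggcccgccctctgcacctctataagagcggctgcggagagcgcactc
The matches lie 44 and 42 bases before the start in Slc7a12, 50 in Rbp4, 81 and 20 in Cyp1b1 and 172 in Lrat. Searched on both strands over these 250 bases, TATAAA was in 6 of the 16 furthest higher genes (Ttll8, Slc7a12, Pgam2, Rbp4, Inmt and Cyp2c11), in 0 of the 16 furthest lower genes and in 12.9% of all 33469 promoters. GCGTG was in 5 and 6 of the 16 and in 25.9% of all. TGANTCA, the AP-1 site, was in 1 and 0 of the 16 and in 6.34% of all. CAAAGTCCA, a site type of HNF4, was in 0 and 1 of the 16 (Trpv6) and in 0.338% of all. A match is a stretch of letters, not a site shown to be bound.

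The largest losses in level included genes of the cytoskeleton, antigen presentation, lipid carriage and protein breakdown, with Spp1 far ahead. Spp1 took 17165 CPM in PAN, 225 in PAN_LS-FMD, 332 in healthy and 1292 in healthy_LS-FMD. Tmsb4x stood at 5042 CPM in PAN, 1426 in PAN_LS-FMD, 1739 in healthy and 1151 in healthy_LS-FMD, which is 3.54-fold lower. B2m, the light chain of MHC class I, was 2.05-fold lower, and RT1-A2, a class I heavy chain of the rat, 3.15-fold, at 1110 CPM in PAN, 352 in PAN_LS-FMD, 134 in healthy and 35.5 in healthy_LS-FMD. Reads of RT1 genes may be split between near-identical copies. Apoe, a lipid carrier, stood at 1934, 677, 589 and 324 CPM, and Tsc22d1, a TGF-beta-stimulated transcription regulator, at 1911, 662, 592 and 402. The metallothioneins Mt2A and Mt1 were 2.20-fold and 1.78-fold lower and the lysosomal protease Ctsd 2.84-fold. Igfbp7 (1.52-fold) and Ctsl (1.27-fold) lost many CPM but stayed within 2-fold.

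Several gene groups outside injury, matrix and immune markers were lower. None of 12 immediate early genes was higher, 8 were lower and 4 neither (median -1.54), with Egr1 at 73.6 CPM in PAN and 7.89 in PAN_LS-FMD, Atf3 at 36.8 and 6.43 and Junb at 165 and 37.4. Of 32 actin and microtubule genes 15 were lower and 17 neither (median -0.96). Tubb3 and Tubb6, tubulins of neurons and of regenerating tissue, were 21.2-fold and 12.3-fold lower, and Tpm1, a tropomyosin, 5.35-fold lower, at 726 and 136 CPM. Of 16 cell cycle genes 7 were lower and 9 neither (median -0.94), among them the S-phase helicase subunit Mcm3 (5.66-fold) and the mitotic genes Top2a (7.15-fold) and Mki67 (5.28-fold). Of 11 genes of smooth muscle and pericytes 9 were lower, 1 neither and 1 higher (median -1.41).

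Secreted signals and carriers were lower in part. Of 25 genes of insulin-like and other growth factor signalling 10 were lower and 15 neither (median -0.61). Igfbp6 and Igfbp4, binding proteins of insulin-like growth factors, were 16.1-fold and 5.04-fold lower, Hbegf, a ligand of the EGF receptor, 4.15-fold, and Hgf, hepatocyte growth factor, 3.12-fold. Vegfa, which endothelium depends on, was within 2-fold at 141 and 150 CPM. Of 19 genes of Wnt, Notch and Hedgehog signalling 9 were lower, 1 higher and 9 neither (median -0.94). Gli1, a Hedgehog target, was 10.1-fold lower at 7.82 and 0.772 CPM. Ptch1, of the same pathway, was within 2-fold at 29.2 and 26.9 CPM. The Wnt antagonists Dkk3 and Sfrp1 were 6.88-fold and 3.47-fold lower, and the ligand Wnt7b 3.93-fold lower. The higher one was Ihh, a Hedgehog ligand of the proximal tubule, at 3.93 and 11.6 CPM.

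Lists of lipid, metal and calcium handling had members in both directions. Of 14 apolipoprotein and lipid droplet genes 8 were lower, 2 higher and 4 neither (median -1.27). Abca1, the cholesterol exporter, was 5.27-fold lower and the lipase Lpl 3.22-fold, while Fabp5, a fatty acid-binding protein, was 3.62-fold and Cidec, a lipid droplet protein, 3.17-fold higher. Of 18 genes of iron, copper and zinc handling 6 were lower, 3 higher and 9 neither (median -0.56). Cp, the ferroxidase ceruloplasmin, stood at 214 CPM in PAN, 16.6 in PAN_LS-FMD and 19.5 in healthy, which is 12.9-fold lower than PAN, and Tfrc, the transferrin receptor, was 2.34-fold higher. Of 14 genes of vitamin D, calcium and phosphate handling 3 were lower, 2 higher and 9 neither (median 0.15), and the lower share, 21.4%, is near the 17.6% of all genes. Slc34a2, a phosphate cotransporter better known from lung and gut, stood at 446 and 66.5 CPM, Cyp24a1, which breaks down vitamin D, at 183 and 72.6, and Trpv5, the calcium channel of the distal tubule, was 2.42-fold lower. The calbindins S100g and Calb1 were 3.71-fold and 3.07-fold higher.

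Segment, P450, pressure and protease-inhibitor lists were counted in the same way. Of 9 genes of the distal convoluted and connecting tubule 4 were higher, 1 lower and 4 neither (median 0.66). Slc12a3, the thiazide-sensitive sodium chloride cotransporter, stood at 126 CPM in PAN, 455 in PAN_LS-FMD, 257 in healthy and 590.1 in healthy_LS-FMD, and Emx1, a transcription factor of this segment, was 2.69-fold higher. Of 29 cytochromes P450 8 were higher, 4 lower and 17 neither (median 0.11), which is 27.6% higher and 13.8% lower beside 4.64% and 17.6% of all genes. The Cyp2d enzymes of drug oxidation were higher as a group, Cyp2d2 by 3.16-fold, Cyp2d3 by 3.58-fold and Cyp2d5 by 3.34-fold, with the reservation that their reads may be split between close copies. Of 11 genes of peptide systems of pressure and natriuresis 3 were higher, 2 lower and 6 neither (median 0.49), and the lower share, 18.2%, is near that of all genes. Mme, a peptidase of the brush border, was 2.87-fold higher, and Ednra, the endothelin A receptor, 3.64-fold lower. Of 15 serpins and protease inhibitors 7 were lower and 8 neither (median -0.76), led by Slpi, the secretory leukocyte protease inhibitor, at 240 CPM in PAN and 25.1 in PAN_LS-FMD. Of 14 S100 and annexin genes 6 were lower, 1 higher and 7 neither (median -0.73), with Anxa5 at 480 and 140 CPM.

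Ribosomal, lysosomal and sterol genes lay close to the median of all genes. None of 29 cytosolic ribosomal protein genes was past 2-fold (median -0.50). Of 26 lysosomal genes 5 were lower and 21 neither (median -0.53), led by the proteases Ctsk (4.46-fold) and Ctsz (3.90-fold). Of 20 genes of sterol and fatty acid synthesis 1 was lower (median -0.34), the desaturase Scd2. Of 22 claudins and junction genes 5 were lower and 17 neither (median -0.25). The lower ones included the mesenchymal cadherin Cdh11 at 4.09-fold and Cldn4 and Cldn7 at 3.99-fold and 3.63-fold. The lower shares of the lysosomal list and of this list are near the 17.6% of all genes.

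Markers of tissue that a section can hold besides kidney parenchyma were counted in the same way. Urothelium had 1 measured marker, Krt7, at 318 CPM in PAN and 257 in PAN_LS-FMD. In PAN it was at 344 CPM in the cortex, 180 in the outer stripe and 465 in the medulla, so it is no sign of urothelium alone. The uroplakins had few UMIs, with Upk1a at 52 in PAN and 43 in PAN_LS-FMD and Upk2 at 2 and 1. Adipocyte markers numbered 3, of which Adipoq, the defining one, stood at 6.30 and 8.18 CPM and the others, Cidec and Pck1, stand in other lists above. The adrenal list had 1 measured member, Cyp21a1, at 3.09 and 3.78 CPM, and nerve markers summed to 24.7 and 9.61 CPM. Haemoglobin and other red cell genes summed to 693 CPM in PAN, 844 in PAN_LS-FMD, 5964 in healthy and 1315 in healthy_LS-FMD. These sums include Slc4a1, at 116, 138, 112 and 329 CPM in the same order, which intercalated cells of the collecting duct also express. Endothelial markers summed to 1212, 949, 997 and 1339 CPM in the same order. Immune markers summed to 15725 CPM in PAN, 2977 in PAN_LS-FMD, 2237 in healthy and 2679 in healthy_LS-FMD, and moved with the lower genes above. Their part in those differences was not tested.

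A few genes set the PAN_LS-FMD section apart from all 3 others. At least 2-fold above each of them were 15 genes (0.152% of those tested) and at least 2-fold below each 33 (0.334%). Cyp1a1 was 10.1-fold above the nearest section. Ppic, the secretory-pathway prolyl isomerase cyclophilin C, was the most abundant of the 10 named, at 434 CPM in PAN, 1708 in PAN_LS-FMD, 586 in healthy and 592 in healthy_LS-FMD, and so 2.89-fold above the nearest. Wisp3, a secreted matricellular protein, was 5.86-fold above the nearest section, and Cabp7, a calcium-binding protein, 3.30-fold. Upp2, a uridine phosphorylase, stood at 43.1 CPM against 11.2, 15.7 and 14.7 in PAN, healthy and healthy_LS-FMD. Snapc5, Zmym6nb, Spata22 and Pxmp4 were 2.51-fold to 3.14-fold above the nearest.

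Below all 3 others, the desaturase Scd2 was the most abundant. It stood at 193 CPM in PAN, 44.4 in PAN_LS-FMD, 455 in healthy and 533 in healthy_LS-FMD, so that PAN_LS-FMD was 4.35-fold below the nearest section. Tspan1, an epithelial tetraspanin, stood at 54.4, 15.1, 79.6 and 77.7 CPM, and Rtel1, a DNA helicase that guards telomeres, at 38.0, 13.01, 36.8 and 61.6 CPM. The contractile genes Actg2 and Cnn1 were 6.80-fold and 3.69-fold below the nearest section. In PAN these 2 genes lead a cortical region of 66 spots together with Myh11, the smooth muscle myosin, and they lead no region of PAN_LS-FMD. The part of that region in their levels was not tested. RT1-N2, a class I gene, F2rl1, the protease-activated receptor of epithelia, Twist1, a mesenchymal transcription factor, and Syne4 were 2.49-fold to 4.17-fold below the nearest section.

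To ask whether the differences were equal over the kidney, each section was divided into 13 regions by clustering its spots, and the regions were grouped into zones by cortical, outer-stripe and medullary marker genes. The PAN section had 1319 cortical, 575 outer-stripe and 515 medullary spots and the PAN_LS-FMD section 1060, 671 and 184, and 315 and 272 spots had no zone. The medullary share was thus 18.9% and 8.41% of the spots. The medulla of PAN is made of a region led by Slc12a1 and Gp2, of the thick ascending limb, and one with Slc4a1 among its leading genes that also held inner-medullary Slc14a1, the urea transporter, which over the section was at 8.63 CPM in PAN and 0.829 in PAN_LS-FMD. Of 12 genes of inner medulla and osmolytes 9 were lower, 1 higher and 2 neither (median -1.46). They included Nfat5, the transcription factor of the osmotic response, at 226 and 88.1 CPM, and the higher one was Cryab, a small heat shock protein, at 254 and 1369 CPM. The part of these unequal shares in the differences between zones was not tested. The zone markers, and the genes that lead a region, helped to make the zones, and values for them are a description.

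Of 7739 genes with at least 100 UMIs in both zones, 321 (4.15%) had a cortical fold at least 2 times the medullary fold and 94 (1.21%) the reverse, with counting intervals that excluded 1. The median gene had a log2 fold of -0.20 in the cortex and -0.34 in the medulla. A single gene, Plet1 (0.0129% of those tested), was at least 2-fold higher in the cortex and at least 2-fold lower in the medulla, and none (0%) went the other way. Plet1, a surface protein of epithelial progenitors and of collecting duct, was 2.41-fold higher in the cortex, at 0.634 times PAN in the outer stripe and 4.42-fold lower in the medulla. The cortical fold was 10.5 times the medullary one (7.08 to 15.6). Over the whole section its level was 20.5 CPM in PAN and 19.8 in PAN_LS-FMD, nearly equal. The ratio was 4.90 with zones given by each spot's own marker score and 6.33 without the cortical region of PAN_LS-FMD led by B3galt2 and Wt1.

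Genes of the distal nephron were among those with the most unequal folds. Gp2, a relative of uromodulin in the thick ascending limb, was 6.73-fold higher in the cortex and at 0.786 times PAN in the medulla, a ratio of 8.50. Prom2, a membrane protein of epithelial protrusions, was 4.01-fold higher in the cortex and at 0.555 times PAN in the medulla. Dnase1, a secreted nuclease, was higher everywhere, by 11.3-fold in the cortex, 5.37-fold in the outer stripe and 2.81-fold in the medulla. Ppp1r1a, a phosphatase inhibitor, was 3.10-fold higher in the cortex and at 0.737 times PAN in the medulla. Gal3st1, which makes sulfatide, and Slc16a7, a monocarboxylate carrier, had cortical folds of 4.39 and 4.403 and medullary ones of 0.739 and 0.876. Gp2, Prom2, Dnase1, Ppp1r1a, Gal3st1 and Slc16a7 each lead one of the regions, as do Cldn5 and Guca2a. Fxyd6, a regulator of the sodium pump (1.94 in the cortex and 0.332 in the medulla), and Ckmt1b, the mitochondrial creatine kinase (1.73 and 0.407), lead none and are no zone marker.

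**Figure D5:**
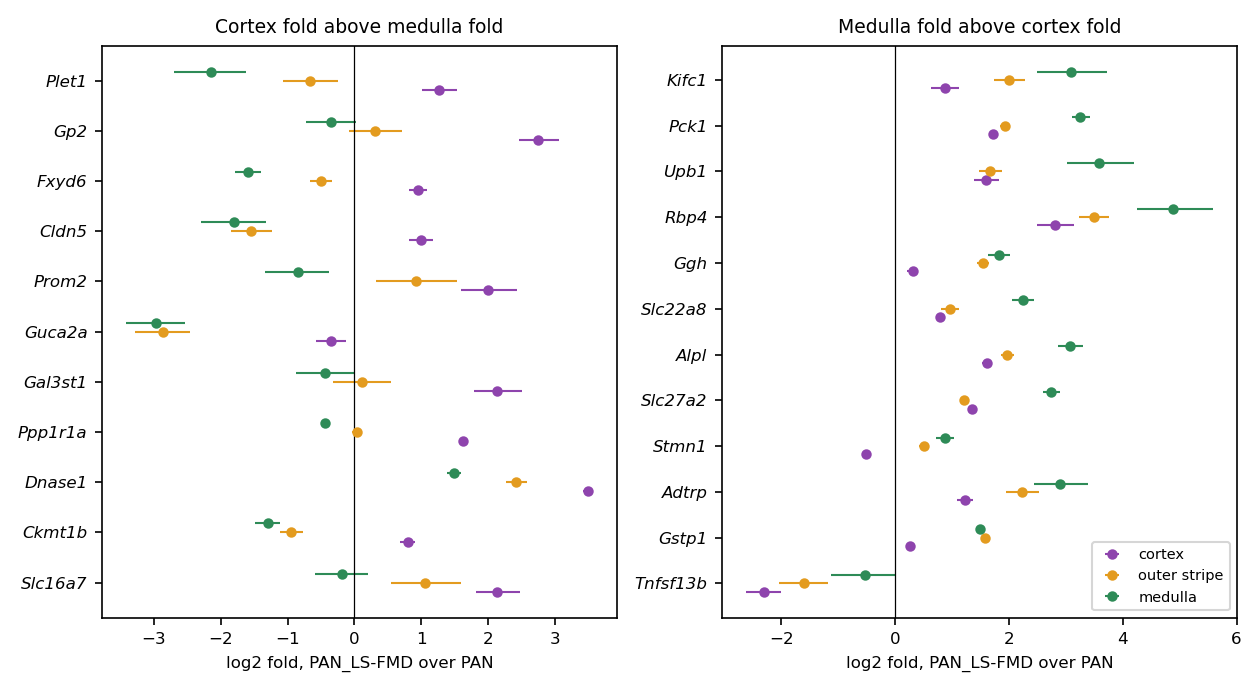
Log2 fold of PAN_LS-FMD over PAN (x axis) in cortical, outer-stripe and medullary spots, with 95% counting intervals as bars, for 11 of the 12 genes whose cortical fold most exceeds the medullary one (left) and the 12 with the reverse (right). In the left panel the cortical point lies to the right of the medullary one throughout, and only Plet1 has one at or above 1 and the other at or below -1.

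By list, the thick ascending limb and the endothelium carried this pattern. Of 11 measured genes of the thick ascending limb 10 had a cortical fold at least 2 times the medullary one, with median log2 folds of 1.09 in the cortex, 0.04 in the outer stripe and -0.44 in the medulla. Of the 5 that are no zone marker, 4 did so. With zones given by each spot's own marker score the count was 5 of 11 in place of 10, and 4 of 5 among those that are no zone marker. Of 17 endothelial genes 10 did so, with medians of 0.13, -1.07 and -0.99, and in outer stripe and medulla they were lower in PAN_LS-FMD. Cldn5, the endothelial claudin, had folds of 1.99, 0.343 and 0.288, Sox17, an arterial transcription factor, 1.05, 0.299 and 0.329, and Gja4, the arterial connexin 37, 1.17, 0.363 and 0.353. Emcn, of capillaries and veins, was 1.97 in the cortex and 0.870 in the medulla. Vwf did not share the pattern, at 1.15, 3.29 and 1.85, nor did Kdr, the main VEGF receptor, at 1.72, 0.684 and 1.19. The endothelial count fell to 6 of 18 by spot, to 5 of 17 without the cortical region of PAN_LS-FMD led by B3galt2 and Wt1, which holds glomerular genes, and to 0 of 10 when the thick ascending limb regions alone stood for the medulla.

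The reverse pattern, a medullary fold at least 2 times the cortical one, was met by 3 of 17 proximal S1 and S2 genes (Miox, Pck1 and Slc22a6) and by 0 of 10 S3 genes, among which Slco1a1 (12.6 in the cortex and 6.67 in the medulla) and Kap (15.3 and 10.96) had the larger fold in the cortex. The genes named next are those with the most unequal folds, whatever their cell type. Rbp4 was 7.02-fold higher in the cortex, 11.3-fold in the outer stripe and 29.6-fold in the medulla. Pck1 was 3.30-fold, 3.82-fold and 9.56-fold higher, and Upb1, an enzyme of pyrimidine breakdown, 3.04-fold, 3.19-fold and 11.99-fold. Kifc1, a mitotic kinesin, was 1.83-fold, 4.001-fold and 8.48-fold higher. Slc22a8, an organic anion transporter, Slc27a2, which activates very long chain fatty acids, Alpl, the alkaline phosphatase, and Ggh, a folate hydrolase, had medullary folds 2.62 to 2.87 times the cortical ones. Proximal S1 and S2 genes as a list had medians of 0.69 in the cortex, 0.25 in the outer stripe and 1.49 in the medulla, where the tubules of these segments do not lie. The medulla of PAN_LS-FMD held 184 spots beside an outer stripe of 671 and that of PAN 515 beside 575, and the part of these sizes was not tested. With the thick ascending limb regions alone as the medulla, 3 of the 8 named genes that could still be measured kept a ratio of at least 2. Stmn1, a microtubule regulator, was at 0.703 in the cortex and 1.84 in the medulla, and Tnfsf13b, the B-cell survival factor BAFF, was at 0.201 and 0.689, lower in both.

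A second view set regions side by side that share at least 3 leading genes, which gave 8 pairs over cortex, outer stripe and medulla. The shared leading genes chose the pairs, and the pairs had from 34 to 406 spots per region. In the cortex, 3.57% of the 7543 genes tested were higher and 8.02% lower in the pair of the early proximal tubule (Slc5a12 and Slc5a2), 3.39% of 6546 higher and 8.48% lower in the pair led by Pck1 and Adh6, and 4.29% of 5273 higher and 7.17% lower in the connecting tubule pair (Klk1c9 and Calb1). The pair of glomerular regions (Nphs1 and Pnoc), with 8.35% of 3415 genes higher and 5.3% lower, was the only one of the 8 with more higher than lower genes. In the outer stripe, the pair led by Slc7a12 had 2.15% of 6924 genes higher and 11% lower, and the pair led by Apoh and Apoc2 had 3.4% of 6878 higher and 14.8% lower. In the medulla, the thick ascending limb pair (Slc12a1 and Cldn16) had 6.27% of 5025 genes higher and 11.5% lower. The collecting duct pair (Fxyd4 and Slc4a1) had 7.8% of 6448 higher and 19.3% lower, the largest share of lower genes among the 8.

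Some genes differed in the same direction in each pair. Inmt was 6.79-fold to 12.3-fold higher in the 8 pairs, Kap 2.97-fold to 16.7-fold and Gclc 1.82-fold to 8.32-fold. Spp1 was at 0.00905 to 0.0325 times PAN. Tmsb4x was at 0.296 to 0.446 times PAN. Cldn5 turned with the place, at 0.164 times PAN in the collecting duct pair and 2.62 times in the pair led by Klk1c9 and Calb1. Plet1 was at 0.186 times in the first of these, and its 1.58 times in the second (0.883 to 2.99) rests on 16 and 48 UMIs and has an interval that holds 1. In the other cortical pairs Plet1 was at 1.56 to 2.29 times PAN, with intervals above 1. It was at 0.299 times in the thick ascending limb pair and at 0.594 and 0.860 times in the outer-stripe pairs. Apoe was at 0.144 times PAN in the collecting duct pair and at 0.679 times in the pair led by Klk1c9 and Calb1. Kap had its smallest fold, 2.97, in the outer-stripe pair where its level was highest in both sections. Outside the proximal tubule, Kap stood at 482 CPM in the glomerular region of PAN and 7542 in that of PAN_LS-FMD. In the collecting duct regions it stood at 1272 and 20290 CPM. Spots there may include proximal tubule, and its part in these folds was not tested.

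The list medians behaved alike over the pairs for some groups and not for others. The tricarboxylic acid cycle had medians of 0.32 to 0.68, glutathione and conjugation of 0.34 to 1.28 and peroxisome and fatty acid oxidation of 0.51 to 0.92. Proximal S3 genes ranged from 0.46 in the outer-stripe pair led by Slc7a12 to 3.52 in the glomerular pair. Spots of a region may include cells of other types, so these values are not levels within glomeruli or ducts. The part of RNA from outside the named segment was not tested. Immediate early genes had medians of -1.79 to -0.96, actin and microtubule genes of -1.18 to -0.52 and ribosomal protein genes of -0.57 to -0.18. Mitochondrially encoded genes were on both sides of 0, at -0.44 in the pair led by Pck1 and Adh6 and 0.67 in the pair led by Klk1c9 and Calb1. Endothelial genes ranged from -1.30 in the collecting duct pair to 0.19 in the glomerular pair.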

How the data were processed

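The deposited matrices hold UMI counts per gene and spot, which the authors made with Space Ranger 1.2.1 for PAN, PAN_LS-FMD and healthy_LS-FMD and 2.0.1 for healthy, per the file headers. The genome build and annotation are not given in the sources used here. Counts were summed over spots of at least 500 UMIs and scaled to 1000000 (CPM). Where a symbol had several of the 32402 features, the most abundant one was used. Folds carry exact 95% intervals from the split of 2 Poisson counts, and ratios of folds an interval on the log scale with 0.5 added. A gene was called at 2-fold with an interval that excluded 1. Spots were clustered in each section alone (2000 variable genes, 30 components, 15 neighbours, Leiden resolution 1), with no doublet caller, and a region without a clear marker score was given no zone, a rule set after the data were seen. Python 3.11.15 was used with numpy 2.4.6, scipy 1.17.1, pandas 2.3.3, scanpy 1.11.5, igraph 0.11.9 and matplotlib 3.10.9, and the fold and interval code was tested on simulated data.

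Members and lists were chosen with earlier results of these data known. Leaving out injury, matrix, immune, podocyte, ribosomal, mitochondrially encoded, haemoglobin, immunoglobulin and provisional genes, the rule named the 20 genes furthest higher and lower by the bound nearest 1, the 10 with the largest gain and loss in CPM, the 12 most unequal between cortex and medulla each way, the 10 furthest above and below all other sections, and up to 4 genes per list. Other genes named, such as the retinoid genes, Vegfa and Lrp2, were chosen after their values were seen, and some genes that the rule named are not reported here. Alternatives varied the scaling, the spot and gene minimums, the spot weights, the fold and the zones.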

Additional observations from a re-analysis of the deposited data

Results flagged for a closer look

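The fold of Plet1 went opposite ways in 2 zones of the same pair of sections. It was at least 2-fold higher in cortical spots of PAN_LS-FMD (167 UMIs in PAN and 464 in PAN_LS-FMD) and at least 2-fold lower in medullary spots (224 and 35 UMIs), and the cortical fold was 10.5 times the medullary one. With 1 section per group the difference was not tested.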

How the results depend on the processing

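The counts of 458 higher and 1737 lower genes came to 451 to 596 and 1185 to 2408 under the other scalings, spot minimums and weights and with genes of at least 50 UMIs, except that scaling by the median of ratios gave 830 higher. Genes of at least 1000 UMIs gave 308 higher and 846 lower, and a 1.5-fold limit 964 and 3235. The counts of 321 and 94 genes unequal between zones became 128 and 45 with at least 300 UMIs per zone and 100 and 46 with thick ascending limb regions alone as medulla. Collecting duct regions alone gave 384 and 165, and other zone settings 240 to 390 and 64 to 141. Chosen after the data were seen were the settings that take medullary regions alone, leave out 1 cortical region or place regions by highest score. Of 706 values of named genes under the planned settings, 530 moved by less than their counting interval, 174 by more and 2 changed direction: over the whole section Fxyd6 and Ckmt1b had folds of 0.895 and 0.812, and of 1.13 and 1.02 under the median of ratios. Klk1c3 had no UMI left in thinned PAN spots, so no fold there. Of 287 list medians 1 moved, that of proximal S3 genes, to 2.58 with thinned spots. Resolution 0.5 and clustering both sections together could not be run as zone settings, since neither left a medullary zone in PAN_LS-FMD. No paired analysis was possible because each group has 1 section. Depth limits genes near the floor of 3 counts, 0.120 CPM in PAN and 0.0858 in PAN_LS-FMD.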
